A study of Homo sapiens with 12 samples.

Results

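Replication-dependent histone genes were followed in A549 cells, a human lung adenocarcinoma line, in which the BTLA receptor had been knocked down or whose cells had been sorted by surface BTLA. The members were the protein-coding genes whose names mark them as clustered histone genes, 71 of 60617 genes in the tables, with 6 of class H1, 17 of H2A, 18 of H2B, 15 of H3 and 15 of H4. The names include testis genes of the same clusters, such as HIST1H1T and HIST1H2BA. In the knockdown experiment, 3 shBTLA libraries came from cells given lentiviral BTLA shRNA in the pSIH-H1-Puro vector, and 3 shControl libraries from cells given the empty vector, both under puromycin selection. In the sort, 3 BTLAlow and 3 BTLAhigh libraries came from cells separated with a labelled BTLA antibody and then cultured, so the groups were not read at the moment of sorting. All 12 libraries come from the same line grown in the same serum-containing medium. The sources do not say of these libraries whether replicates were separate cultures, so p-values measure the spread between libraries, which may be technical.

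Histones H2A, H2B, H3 and H4 form the core of the nucleosome, and H1 binds the linker DNA between nucleosomes. The replication-dependent genes are transcribed mainly in S phase, when new DNA must be packaged. Their typical mRNA has no introns and no poly(A) tail, and ends shortly after a conserved stem-loop that is bound by SLBP, which guides its processing, translation and decay. Some of these genes can also give polyadenylated mRNA that ends further downstream. The study asked whether BTLA restrains the growth of tumor cells. Histone mRNA is one measure of cells in S phase where libraries capture mRNA without a poly(A) tail. Whether these libraries did is not given in the sources used here, so what their histone reads say of S phase is limited.

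The stem-loop is the sequence that sets these mRNAs apart, and it was searched as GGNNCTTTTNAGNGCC on the transcript strand in the transcripts of GENCODE v44lift37, an annotation on GRCh37. Of the 71 members, 65 matched a transcript and 62 of these held the motif. Over all 19833 protein-coding genes, members included, 68 held it (0.343%). Only 2 protein-coding genes that are no member held it within 15 bases of a transcript end. The motif came in 7 spellings. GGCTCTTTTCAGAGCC was found in 38 members of H1, H2A, H2B and H3 and in 0 of H4, while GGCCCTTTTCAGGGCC (8 members) and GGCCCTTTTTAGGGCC (4 members) were found in H4 alone among the members. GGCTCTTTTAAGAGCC was found in 9 members, among them HIST1H2BJ and HIST1H2BK. The windows below are those of the 5 members with the most reads and of HIST1H2BJ and its neighbour HIST1H2AG, which are compared in the sort, with the stem-loop in capitals.
HIST1H1C (chromosome 6, linker histone H1): ccaaaaGGCTCTTTTCAGAGCCacca
HIST1H2AC (chromosome 6, H2A): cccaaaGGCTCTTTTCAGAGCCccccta
HIST1H2AG (chromosome 6, H2A): accaacGGCTCTTTTCAGGGCCaccca
HIST1H2BK (chromosome 6, H2B): cccaaaGGCTCTTTTAAGAGCCactta
HIST1H2BD (chromosome 6, H2B): cccaaaGGCTCTTTTAAGAGCCacgca
HIST1H2BJ (chromosome 6, H2B): cctaacGGCTCTTTTAAGAGCCaccca
HIST1H4I (chromosome 6, H4): taaaaaGGCCCTTTTTAGGGCCcctaag

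Whether a transcript ends at the stem-loop was read from the same annotation, taking an end within 15 bases after it. In 44 members every annotated transcript ended there. In 17 members at least one transcript ran past the stem-loop or lacked it, in 4 members no transcript ended at one, and 6 members had no matched transcript. HIST1H2BJ belongs to the mixed kind, with a transcript of 480 bases that ends 5 bases after the stem-loop and transcripts of 408 and 950 bases without it. HIST1H3E and HIST1H2BI are among the 4 members with no such end, and the motif as searched was absent from their annotated transcripts.

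Promoters of 60 members were found in the RefSeq table of GRCh38.p14, from 250 bases before to 50 bases after each start. The CCAAT box, searched as CCAAT on both strands, was in 85% of them against 35.7% of 27305 promoters. It was in every H1, H2A, H2B and H3 promoter in the table, and in 2 of 11 H4 promoters (18.2%). The TATA box, searched as TATAAA on both strands, was in 66.7% of member promoters against 12% of all. The octamer ATTTGCAT, known as a binding sequence of OCT1 at H2B genes, was in 40% of member promoters against 1.8% of all. By class it was in 11 of 14 H2A, 12 of 16 H2B and 1 of 13 H3 promoters, and in 0 of the 6 H1 and 0 of the 11 H4 promoters. Windows of divergent H2A and H2B genes overlap, so the same octamer can be counted under both classes. The match 208 bases before the HIST1H2AG start is the one 47 bases before the HIST1H2BJ start. HIST1H2AC and HIST1H2BC, and HIST2H2AC and HIST2H2BE, are other pairs that share a match. The H3 match is that of HIST1H3D, whose window in the table is the same one as that of HIST1H2AD, so it is counted under both classes. Matches of these letters are a description and are not measured binding sites.

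**Figure D1:**
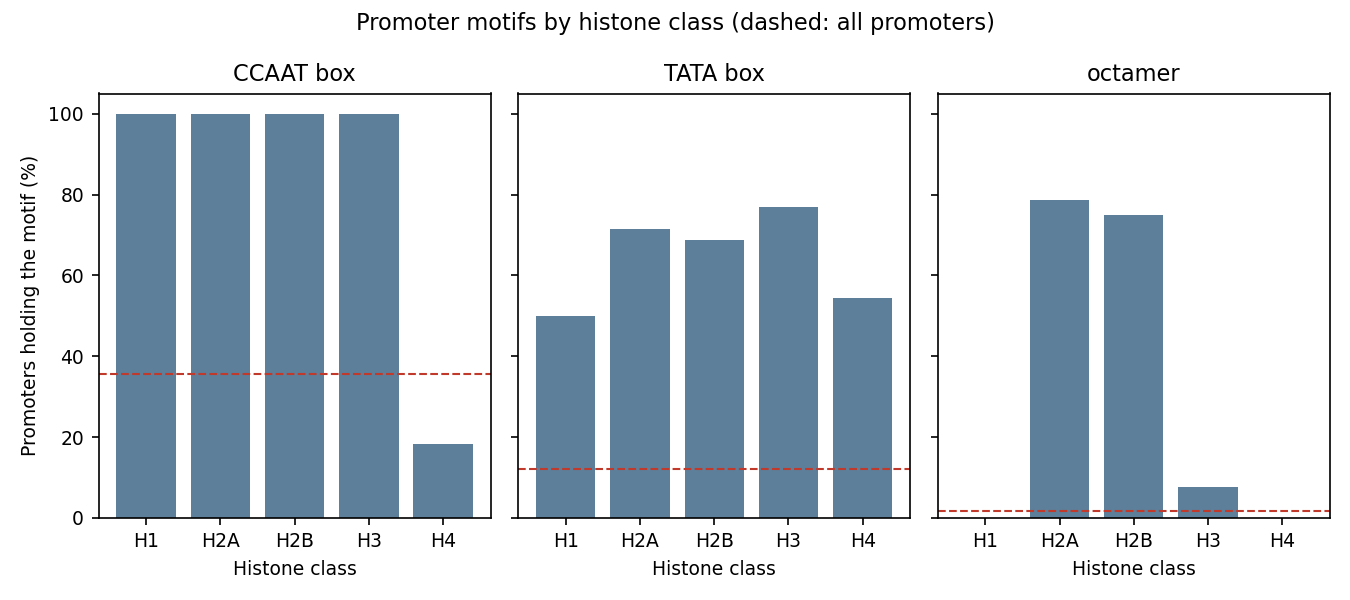
Share of RefSeq promoters of each histone class that hold the CCAAT box, the TATA box or the octamer (y axis, percent of promoters; x axis, class), with all 27305 promoters as the dashed line. The octamer is in 78.6% of H2A and 75% of H2B promoters, where divergent genes can share a match, and the CCAAT box is in 18.2% of H4 promoters.

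The promoters of the 3 members with the smallest p-values in either comparison are printed 5′ to 3′ on the gene's strand, with matches to the 3 motifs in capitals. They are shown because these genes carry the differences described below.
HIST1H2BJ (chr6:27132746-27133045, minus strand, GRCh38.p14): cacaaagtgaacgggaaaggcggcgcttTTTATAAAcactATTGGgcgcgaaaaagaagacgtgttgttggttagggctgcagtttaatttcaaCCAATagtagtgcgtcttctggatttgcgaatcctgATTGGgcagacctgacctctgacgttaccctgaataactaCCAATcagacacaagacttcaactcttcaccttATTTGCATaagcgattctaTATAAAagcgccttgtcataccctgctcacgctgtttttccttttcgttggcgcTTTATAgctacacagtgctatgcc
HIST1H3E (chr6:26223928-26224227, plus strand, GRCh38.p14): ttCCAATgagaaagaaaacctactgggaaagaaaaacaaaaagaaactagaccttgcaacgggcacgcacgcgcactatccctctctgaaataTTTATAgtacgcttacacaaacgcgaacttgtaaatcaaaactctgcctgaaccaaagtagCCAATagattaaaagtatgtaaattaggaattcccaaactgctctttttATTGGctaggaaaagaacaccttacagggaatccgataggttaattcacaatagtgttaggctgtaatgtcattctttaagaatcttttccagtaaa
HIST1H3C (chr6:26045134-26045433, plus strand, GRCh38.p14): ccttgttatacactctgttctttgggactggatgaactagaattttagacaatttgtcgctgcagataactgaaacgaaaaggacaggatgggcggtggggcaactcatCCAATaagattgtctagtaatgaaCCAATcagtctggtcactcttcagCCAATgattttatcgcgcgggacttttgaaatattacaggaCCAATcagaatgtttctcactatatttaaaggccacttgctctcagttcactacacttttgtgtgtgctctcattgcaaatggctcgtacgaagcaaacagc
The HIST1H2BJ promoter holds the octamer 47 bases and a TATA box 28 bases before the start. The HIST1H3E promoter holds no octamer, and its TATA match lies 157 bases before the start and on the other strand.

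Of the 71 members, 55 lie in the large cluster on chromosome 6, with 34 around 26 Mb and 21 around 27 Mb, and 11 lie in the cluster on the long arm of chromosome 1. Adjacent members are often divergent, and 12 pairs of opposite strands had starts less than 1000 bases apart. HIST1H2BJ (chromosome 6, 27125897 to 27132750, minus strand, GRCh38) and HIST1H2AG (27133042 to 27135291, plus strand) start 292 bases apart, so the HIST1H2BJ promoter above also spans most of the region upstream of HIST1H2AG.

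Assigned reads per library ranged from 29130357 to 41748767 for the knockdown and from 29383169 to 42488067 for the sort. BTLA had 0 reads in 10 libraries and 2 reads each in shControl 3 and BTLAhigh 3. A count of 0 allows up to 3 reads, or 0.0706 to 0.103 RPM (the reads of a gene per 1000000 assigned reads) across libraries, counting error only, so BTLA reads cannot check the group labels. The 5 epithelial markers summed to 20984 to 24463 RPM in BTLAlow and 16529 to 20791 in BTLAhigh, and to 15945 to 18564 in shBTLA and 9484 to 14391 in shControl, so the groups did not overlap in either experiment. In the sort 4 of them were called higher and 1 lower in BTLAlow, in the knockdown 0 were called (with libraries scaled to the same median, 2 higher and 1 lower in the sort and 1 higher in the knockdown), and their part in the results below was not tested. The 5 fibroblast markers to 2.19 to 4.56 RPM and the 7 lymphocyte markers to 0.238 to 1.19 RPM. How RNA was selected for the libraries (poly(A) capture or removal of ribosomal RNA) is not given in the sources used here. Other RNAs without a poly(A) tail, such as RN7SL1, summed to 5.80 to 9.82 RPM over 34 genes. The part of RNA selection in these values and in the histone reads was not tested.

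Histone reads were few and were concentrated in a small number of genes. The 71 members summed to 127 to 157 RPM per library, which is 0.0127% to 0.0157% of reads. HIST1H1C, which encodes a linker histone, took 25.1% of all member reads over the 12 libraries, and HIST1H2BK, an H2B gene, took 24.6%. With HIST1H2AC, HIST1H2BD and HIST1H4I these made 74.2%, and the 12 members with the most reads made 90.5%. These are shares of reads. They are not levels per length, because the annotated spans of the genes differ widely, from 381 bases for HIST1H2BK to 14972 bases for HIST1H2AC.

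At the other end, 14 members had no read in any library. A further 27 had reads but passed the filter of at least 10 reads in at least 3 of 6 libraries in neither experiment. The filter was passed by 28 members in the knockdown, by 29 in the sort and by 27 in both. A member that passed did so on its own reads, so the tested members are the more abundant ones, and their median of 30.8 to 41.7 reads per library remains below that of all genes tested (412 in the knockdown and 429 in the sort). Of the members not tested, the most reads in any library were 14 in the knockdown and 24 in the sort. HIST2H3A, HIST2H3C, HIST3H2A, HIST3H2BB, HIST1H1A and HIST1H3D were among those at 0 in all libraries. Pairs of near-identical genes on chromosome 1 (HIST2H4A and HIST2H4B, HIST2H3A and HIST2H3C, HIST2H2AA3 and HIST2H2AA4) are uncertain, since the handling of reads that match both copies is not given.

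**Figure D2:**
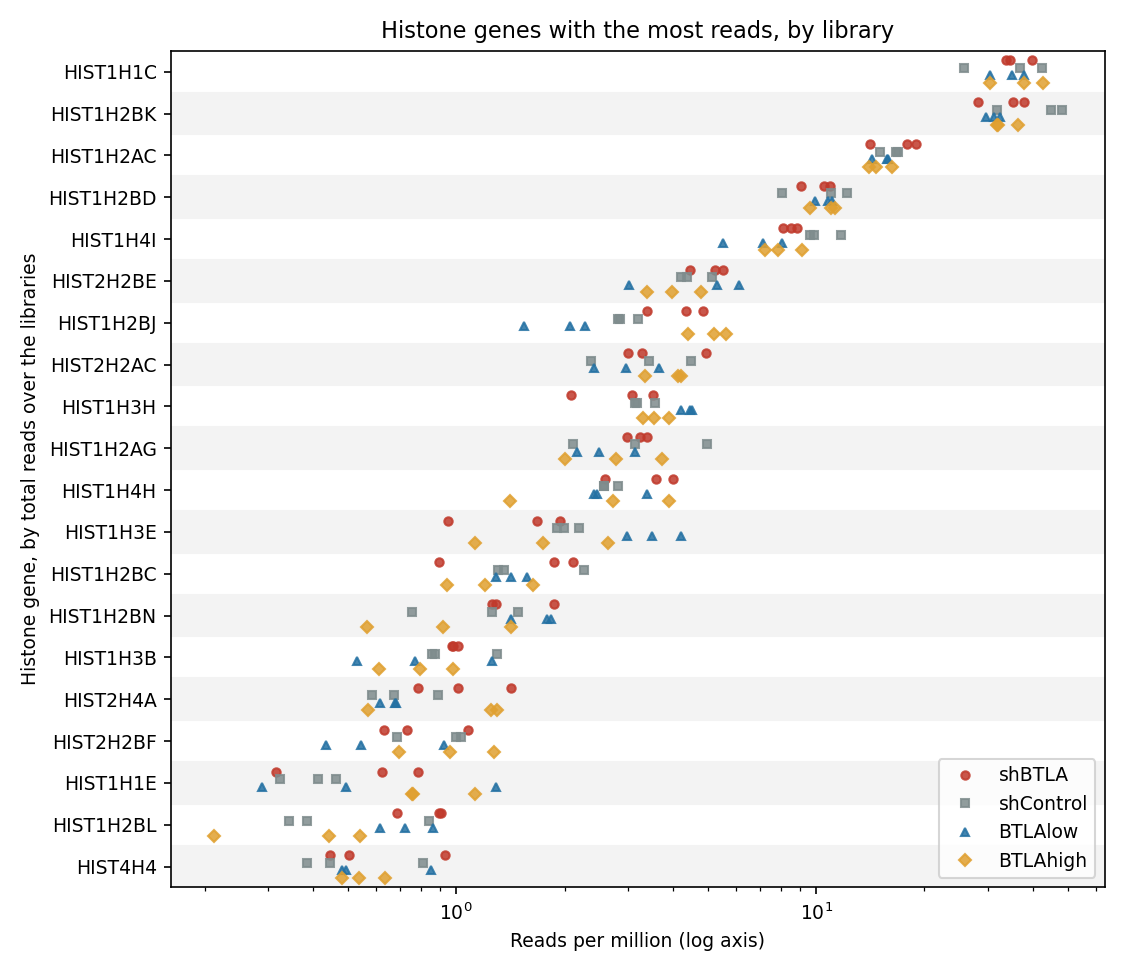
RPM (x axis, log scale) of the 20 histone genes with the most reads, by library, with 3 points per group. HIST1H1C and HIST1H2BK lie between 25.8 and 48.3 RPM in every library, and the BTLAlow points of HIST1H2BJ lie at 1.54 to 2.28 RPM, below the BTLAhigh points at 4.42 to 5.63 RPM.

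The summed level of each class was compared between groups as a description. In the knockdown the members summed to 144 ± 2.12 RPM (SD, n = 3) in shBTLA and 148 ± 8.33 in shControl. In the sort they summed to 136 ± 7.79 RPM in BTLAlow and 141 ± 3.18 in BTLAhigh. H3 was the class with a higher sum in BTLAlow, at 10.6 ± 1.51 RPM against 8.16 ± 0.814. The H1, H2A, H2B and H4 sums had lower means in BTLAlow, for example H2B at 54.8 ± 1.18 against 58.0 ± 2.18 RPM. The H3 difference lay in HIST1H3E (3.57 against 1.83 RPM) and HIST1H3H (4.40 against 3.58 RPM), and the other 13 H3 members summed to 2.62 ± 0.861 RPM in BTLAlow and 2.76 ± 0.241 in BTLAhigh. In the knockdown, the H2B mean was 59.4 RPM in shBTLA and 65.2 in shControl, and the H1 mean was 36.8 and 35.6.

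**Figure D3:**
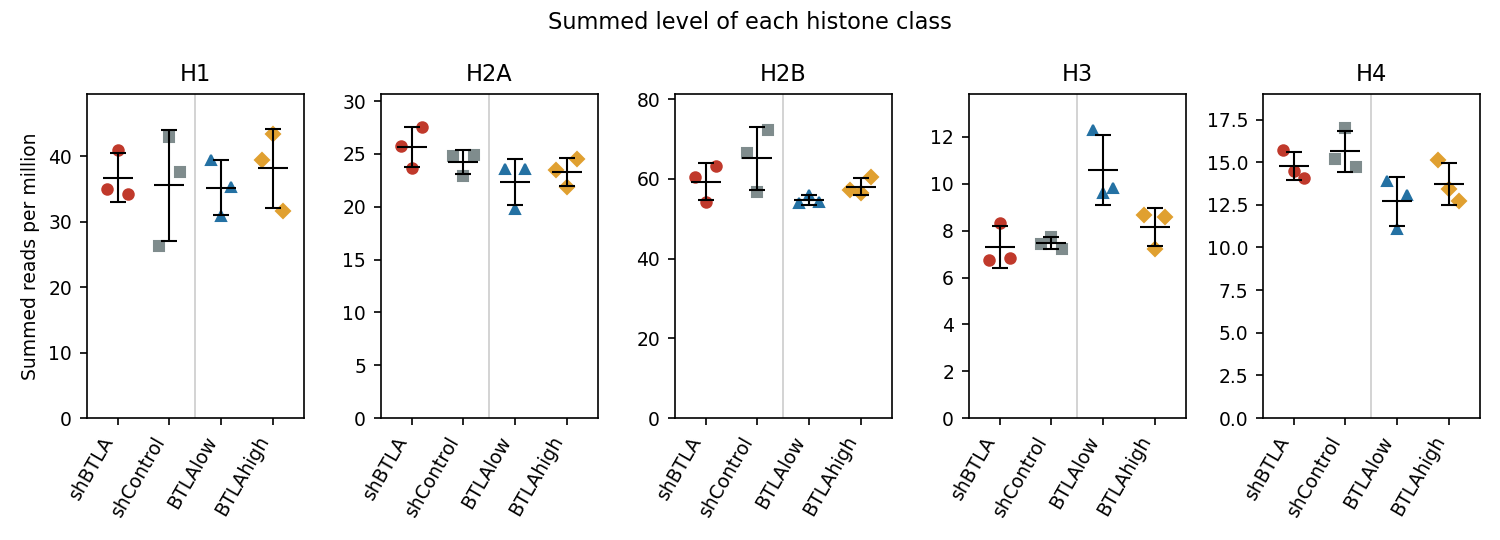
Summed RPM (y axis, from 0) of the members of each histone class in the 12 libraries, with points for libraries and the bar for the mean ± SD of 3 libraries. H3 is at 10.6 RPM in BTLAlow and 8.16 in BTLAhigh, and H1, H2A, H2B and H4 have their lower mean in BTLAlow.

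The knockdown asked whether histone genes move when BTLA is depleted. By limma with Benjamini-Hochberg adjustment over 16630 genes and an adjusted p under 0.05, 0 of 28 tested members were higher in shBTLA and 0 were lower, against 0.782% of all genes higher and 0.686% lower. Without adjustment, p was under 0.05 for 2 members that were higher (5.40% of all genes) and for 0 that were lower (5.36%), and limma's voom test also called 0 in each direction. The median log2 difference of the tested members was 0.06, with 15 above 0 and 13 below, and that of all genes tested was -0.02. By the threshold of the study (unadjusted p of at most 0.05 and at least 1 on the log2 scale) HIST1H3C was the 1 member higher (1.74% of all genes) and 0 were lower (1.03%). HIST1H3C passed the filter only with its shBTLA reads, so its place in these counts is not taken as support.

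Among linker histones, HIST1H1C was at 34.6, 39.9 and 33.6 RPM in shBTLA and 25.8, 42.5 and 36.9 RPM in shControl. The shControl libraries bracket the shBTLA libraries, and the log2 difference was 0.06 with a 95% interval of -0.37 to 0.50 (limma, adjusted p = 0.929). HIST1H1C was lowest in shControl 1, the library with the lowest share of ribosomal protein reads in that experiment (6.24%), and highest in shControl 2, with the highest (10.5%), and the part of this in the result was not tested. HIST1H1E, another somatic linker histone gene, was at 0.575 ± 0.238 RPM in shBTLA and 0.400 ± 0.0707 in shControl (log2 difference 0.37, adjusted p = 0.787).

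The H2A genes with the most reads did not separate the groups either. HIST1H2AC was at 17.0 ± 2.58 RPM in shBTLA and 16.2 ± 1.04 in shControl, with groups that overlapped and a log2 difference of 0.06 with an interval of -0.30 to 0.41. HIST2H2AC, in the cluster on chromosome 1, was at 3.74 ± 1.05 RPM in shBTLA and 3.43 ± 1.07 in shControl (adjusted p = 0.904). HIST1H2AJ was at 0.684, 0.449 and 0.862 RPM in shBTLA and 0.275, 0.389 and 0.361 RPM in shControl. Its groups did not overlap, but the difference of 0.77 had an adjusted p of 0.469 by limma.

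HIST1H2BK, the H2B gene with the most reads, was at 35.3, 28.2 and 37.7 RPM in shBTLA and 44.9, 31.8 and 48.3 RPM in shControl. Its log2 difference was -0.29 with an interval of -0.72 to 0.13, and the groups overlapped. HIST1H2BD was at 10.2 ± 0.989 RPM in shBTLA and 10.4 ± 2.14 in shControl. HIST1H2BJ was at 4.34, 4.85 and 3.38 RPM in shBTLA and 2.81, 2.85 and 3.20 RPM in shControl. Each shBTLA library was above each shControl library, and the difference of 0.48 (interval 0.01 to 0.94) had an unadjusted p of 0.0463 and an adjusted p of 0.450 by limma.

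HIST1H3C, one of the genes for canonical H3, had the smallest p of the members in the knockdown. It held 28, 21 and 25 reads in shBTLA and 4, 4 and 12 reads in shControl, or 0.642 ± 0.0827 against 0.192 ± 0.102 RPM. The groups did not overlap. The log2 difference was 1.39 with an interval of 0.56 to 2.22. It did not pass, with an adjusted p of 0.150 by limma and an unadjusted p of 0.00454 in the same fit. Of the shControl libraries only shControl 3 reached 10 reads, so HIST1H3C passed the filter only with its shBTLA reads. Its values are therefore not taken as support for a difference. In the sort the same gene was at 0.531 ± 0.132 RPM in BTLAlow and 0.486 ± 0.156 in BTLAhigh (log2 difference 0.13). HIST1H3C and HIST1H2BJ are described here because of their values.

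The H3 genes with the most reads, HIST1H3H and HIST1H3E, had log2 differences of -0.21 and -0.45 in the knockdown, with adjusted p of 0.812 and 0.674 by limma. For HIST1H4I, the H4 gene with the most reads, the levels were 8.84, 8.50 and 8.07 RPM in shBTLA and 9.85, 11.7 and 9.64 RPM in shControl. The groups did not overlap, and the difference of -0.29 had an adjusted p of 0.568. HIST1H4H was at 3.39 ± 0.727 RPM in shBTLA and 2.66 ± 0.140 in shControl, with groups that overlapped. Over all tested members, the groups did not overlap for 3 that were higher in shBTLA (9.14% of all genes) and 1 that was lower (8.77%). HIST1H3C, among those that were higher, passed the filter only with its shBTLA reads.

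**Figure D4:**
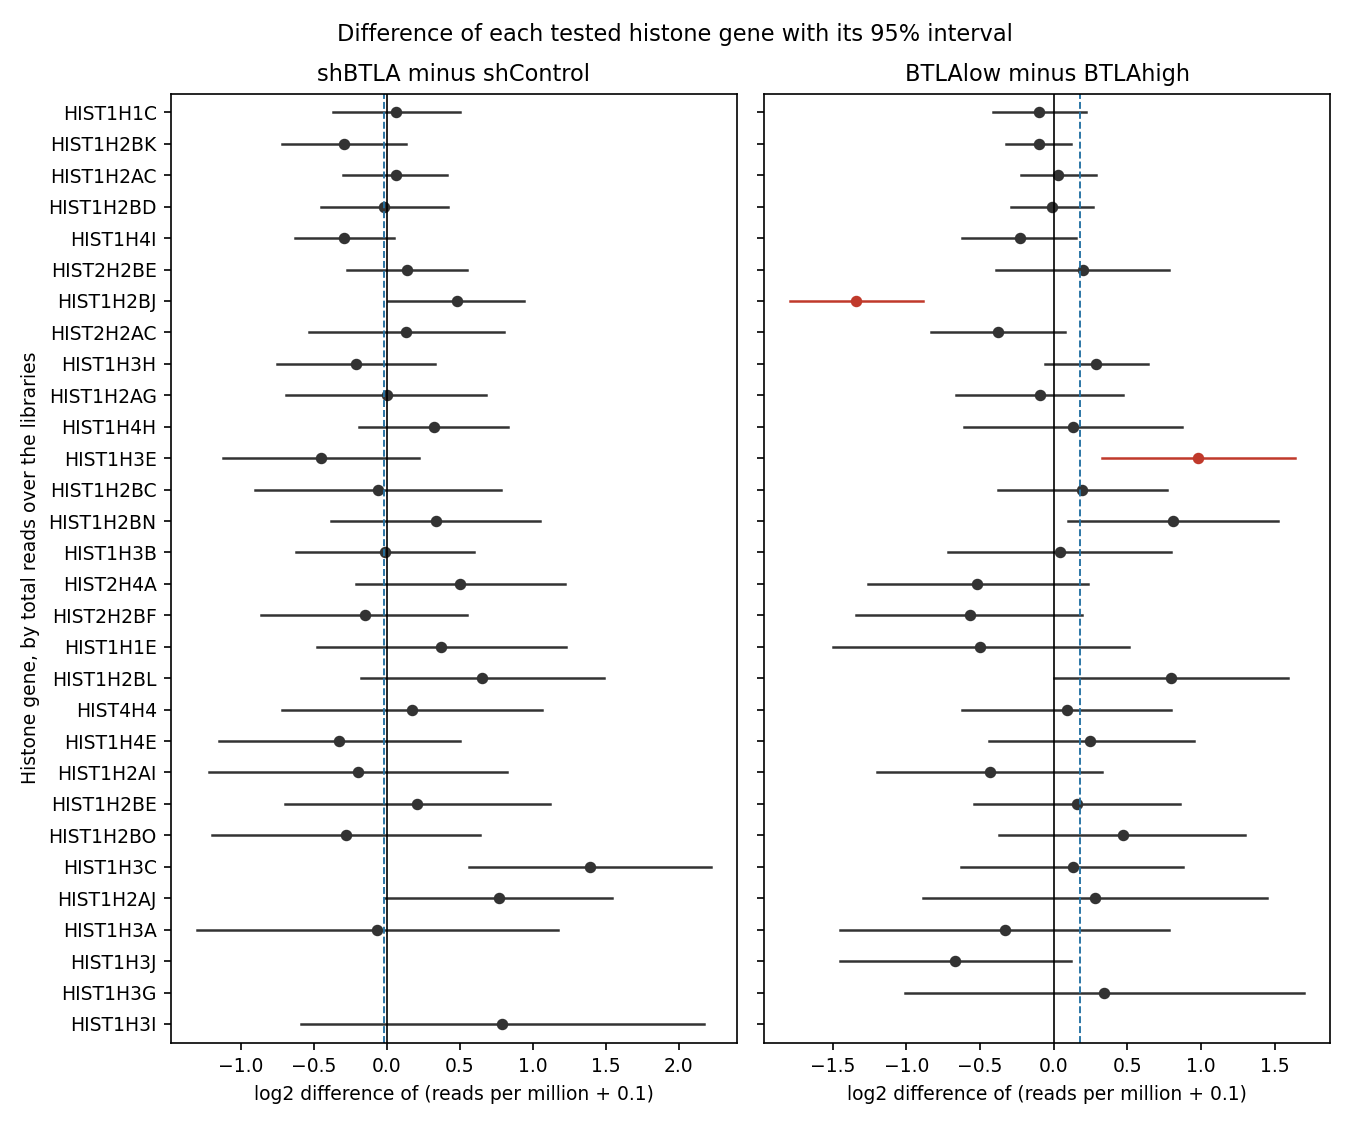
log2 difference of (RPM + 0.1) for the tested histone genes in the knockdown (left) and the sort (right), with points for the estimate, lines for the 95% interval of limma, red for an adjusted p under 0.05 and the dashed line for the median of all genes tested. HIST1H2BJ at -1.34 and HIST1H3E at 0.98 in the sort are in red, and 0 genes are in red in the knockdown.

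The sort asked whether histone genes differ between cells of low and high surface BTLA. By the same test over 16912 genes, 1 of 29 tested members was higher in BTLAlow, HIST1H3E, against 19.1% of all genes, and 1 was lower, HIST1H2BJ, against 6.25% of all genes. With 29 members tested, 1 gene is 3.45% of them in each direction. The counts stand beside a median of 30.8 reads for the members and 429 for all genes, and the part of depth in this was not tested. The median log2 difference was 0.04 for the tested members, with 16 above 0 and 13 below, and 0.18 for all genes. When libraries were scaled to the same median, these medians became -0.13 and 0.01, and the calls over all genes went from 3238 higher and 1057 lower to 2042 higher and 2230 lower. Without adjustment, p was under 0.05 for 3 members that were higher (28.8% of all genes), HIST1H2BL, HIST1H2BN and HIST1H3E, and for 1 that was lower (9.99%), HIST1H2BJ. By the threshold of the study, 0 members were higher (7.02% of all genes) and 1, HIST1H2BJ, was lower (1.31%).

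HIST1H2BJ, an H2B gene, was lower in BTLAlow cells. It held 67, 86 and 50 reads in BTLAlow and 184, 239 and 140 reads in BTLAhigh, which is 2.28, 2.07 and 1.54 RPM against 5.22, 5.63 and 4.42 RPM. The highest BTLAlow library stayed well under the lowest BTLAhigh library. The log2 difference was -1.34 ± 0.20 (SE, n = 3 in each group) with an interval of -1.79 to -0.89, and the adjusted p was 0.00166 by limma. The call held when each library was left out in turn, with differences of -1.45 to -1.18. In the knockdown HIST1H2BJ had a difference of 0.48 that did not pass, so its estimates in the 2 experiments had opposite signs. The experiments share no library and the difference between them was not tested.

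HIST1H2AG, the divergent neighbour of HIST1H2BJ, was at 3.13, 2.17 and 2.49 RPM in BTLAlow and 2.78, 2.00 and 3.73 RPM in BTLAhigh. These groups overlapped, with a log2 difference of -0.09 and an interval of -0.66 to 0.47 (limma, adjusted p = 0.809). The log2 ratio of HIST1H2BJ to HIST1H2AG was -0.44, -0.06 and -0.66 in BTLAlow and 0.89, 1.45 and 0.24 in BTLAhigh. HIST1H2BJ thus had fewer reads than its neighbour in each BTLAlow library and more in each BTLAhigh library. The difference of the ratio was -1.25, with an exact two-sided permutation p of 0.1, the smallest that 3 against 3 libraries can give. In the knockdown the ratio differed by 0.48 (exact permutation p = 0.3). This pair was examined because of the values of HIST1H2BJ, so the ratio in the sort is no separate support for that gene's call.

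Other divergent pairs with both genes tested in the sort were also compared. HIST1H2BL to HIST1H2AI had a ratio higher by 1.23 in BTLAlow (exact permutation p = 0.1). HIST1H3J to HIST1H2BO had one lower, at -1.13. HIST1H3J held 6, 6 and 7 reads in BTLAlow and 15, 14 and 10 in BTLAhigh. It passed the filter through BTLAhigh alone, so no test is given for that pair. Reads in these genes were far fewer, at 0.733 ± 0.125 RPM for HIST1H2BL in BTLAlow and 0.188 ± 0.0381 RPM for HIST1H3J. HIST1H3J also overlaps HIST1H2AM on its own strand. The pairs HIST2H2BE to HIST2H2AC and HIST1H2BC to HIST1H2AC differed by 0.57 and 0.16, with exact permutation p of 0.2 and 0.6.

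HIST1H3E, a gene for canonical H3 (chromosome 6, 26224199 to 26227473, plus strand, GRCh38), was higher in BTLAlow cells. It held 124, 145 and 97 reads in BTLAlow and 93, 48 and 55 reads in BTLAhigh, which is 4.22, 3.50 and 2.99 RPM against 2.64, 1.13 and 1.74 RPM. The groups did not overlap, but the lowest BTLAlow library lay close to the highest BTLAhigh library. The log2 difference was 0.98 ± 0.29 (SE) with an interval of 0.33 to 1.64 and an adjusted p of 0.0350 by limma. The call was lost without BTLAlow 1 (adjusted p = 0.104), BTLAlow 2 (0.0709), BTLAlow 3 (0.0686) or BTLAhigh 2 (0.0914), and with libraries scaled to the same median (0.0636). Its annotated span of 3275 bases is longer than a stem-loop histone mRNA, and transcripts of 482 and 2679 bases are annotated for it. Which of them the reads came from was not measured.

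**Figure D5:**
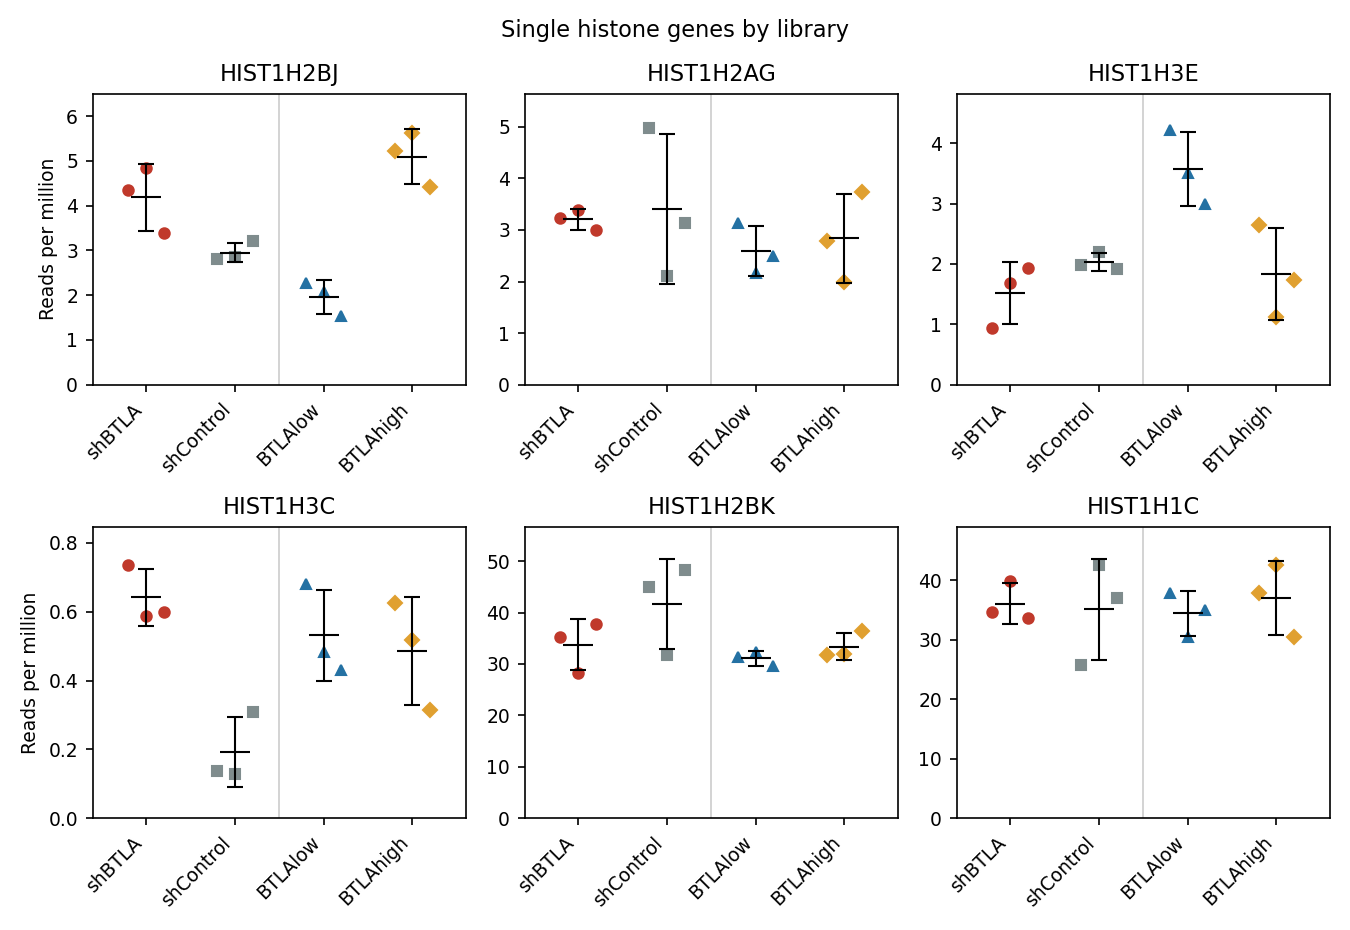
RPM (y axis, from 0) of 6 histone genes in the 12 libraries, with points for libraries and the bar for the mean ± SD of 3 libraries. HIST1H2BJ is at 1.96 ± 0.382 RPM in BTLAlow and 5.09 ± 0.611 in BTLAhigh, while its neighbour HIST1H2AG is at 2.60 ± 0.489 and 2.84 ± 0.865.

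The members with the most reads differed little between the sorted groups, and their intervals were narrow. HIST1H2BK was at 31.3, 32.4 and 29.6 RPM in BTLAlow and 31.8, 32.0 and 36.4 RPM in BTLAhigh, a log2 difference of -0.10 with an interval of -0.32 to 0.12. When libraries were scaled to the same median its difference became -0.27 and passed (adjusted p = 0.0381). HIST1H1C was at 37.9, 30.4 and 34.9 RPM in BTLAlow and 37.9, 42.6 and 30.4 RPM in BTLAhigh, with an interval of -0.41 to 0.22. HIST1H2AC differed by 0.03 (interval -0.22 to 0.29) and HIST1H2BD by -0.01 (interval -0.29 to 0.27). A 2-fold difference, 1 on the log2 scale, lies outside each of these 4 intervals.

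HIST1H1E was at 0.692 ± 0.531 RPM in BTLAlow, with BTLAlow 1 at 1.29 RPM and the other two at 0.289 and 0.493, and at 0.882 ± 0.218 in BTLAhigh. HIST2H2AC was at 3.01 ± 0.628 RPM in BTLAlow and 3.91 ± 0.483 in BTLAhigh (log2 difference -0.38, limma, adjusted p = 0.195). HIST1H3H was at 4.53, 4.20 and 4.46 RPM in BTLAlow and 3.54, 3.30 and 3.89 RPM in BTLAhigh. Its groups did not overlap, and the difference of 0.29 did not pass (adjusted p = 0.192). Of the H4 genes, HIST1H4I differed by -0.23 (adjusted p = 0.341) and HIST1H4H by 0.13 (adjusted p = 0.799), and for HIST1H4H the BTLAhigh libraries ranged from 1.41 to 3.91 RPM. Over the tested members, the groups did not overlap for 4 that were higher in BTLAlow (30.4% of all genes) and 2 that were lower (11.4%). HIST1H3J, among those that were lower, passed the filter through BTLAhigh alone.

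Below the filter, HIST1H2BI was the member with a mean above the floor among those with reads in one group of the sort. It held 8, 3 and 8 reads in BTLAlow and 0, 0 and 0 in BTLAhigh. Its mean of 0.197 ± 0.109 RPM in BTLAlow is at least 2.36-fold higher than the floor of 3 reads per BTLAhigh library (0.0835 RPM on average). No test is given, because the gene was picked for having reads in one group alone. In the knockdown it held 10, 4 and 4 reads in shBTLA and 0, 0 and 2 in shControl. The other members with reads in one group alone had group means under the floor.

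Of the 27 members tested in both experiments, 9 had estimates above 0 in both, 7 below 0 in both and 11 of opposite sign. By the annotated ends in the sort, the 15 tested members whose transcripts all end at a stem-loop had a median difference of -0.09, the 12 with some transcripts past or without it had 0.06, and the 2 with no transcript that ends at one had 0.59. These 2 were HIST1H3E (0.98), called above, and HIST2H2BE (0.20), and the median of all genes tested was 0.18. In the knockdown the medians by annotated end were -0.00 over 15 members, 0.17 over 11 and -0.15 over 2.

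Replication-independent histone genes, most of which make polyadenylated mRNA throughout the cell cycle, were read beside the members. In the knockdown 0 of 11 tested were higher and 0 lower. In the sort 1 rose and 2 fell in BTLAlow, which is 9.09% and 18.2% of the list beside 19.1% and 6.25% of all genes. With libraries scaled to the same median 1 rose and 5 fell, beside 12.1% and 13.2% of all genes. H1F0, the linker histone of non-dividing cells, rose from 183 ± 20.3 to 271 ± 14.3 RPM (log2 difference 0.57, limma, adjusted p = 0.00244). H2AFX, whose protein is phosphorylated at DNA breaks, fell from 500 ± 50.4 to 379 ± 10.2 RPM (-0.39, adjusted p = 0.00981), and H3F3B, which encodes the H3 variant deposited outside replication, fell from 670 ± 16.4 to 577 ± 11.1 RPM (-0.22, adjusted p = 0.0349).

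With reads divided by library totals, few of the histone mRNA processing and decay genes, histone transcription genes and histone chaperones were called. In the knockdown 0 genes of these 3 lists passed in either direction, of 26, 17 and 22 tested. In the sort 1 of 26 processing and decay genes rose, TUT4, a terminal uridylyltransferase (log2 difference 0.68, limma, adjusted p = 0.0165), and 2 fell. These were SRRT, a partner of the cap-binding complex (-0.34, adjusted p = 0.00837), and CSTF2, a cleavage factor (-0.35, adjusted p = 0.0353). Of 17 transcription genes HINFP, which binds H4 promoters, rose (0.46, adjusted p = 0.0164), while CCNE1, the cyclin that activates CDK2 at the start of S phase, and CDC25A, a phosphatase that activates CDK2, fell (-0.30 and -0.41). Of 22 chaperones CABIN1, a subunit of the HIRA complex, rose (0.33) and NAP1L1, which carries H2A and H2B, fell (-0.20, adjusted p = 0.0410). The shares of these lists that rose were 3.85%, 5.88% and 4.55%, and those that fell 7.69%, 11.8% and 4.55%, beside 19.1% and 6.25% of all genes. With libraries scaled to the same median, HINFP and CABIN1 no longer passed (adjusted p = 0.103 and 0.213), and SSRP1, a subunit of FACT, and CHAF1B, a subunit of CAF-1, passed as lower (adjusted p = 0.00623 and 0.0167). Calls of lower genes then numbered 10 of 26, 3 of 17 and 3 of 22. These are 38.5%, 17.6% and 13.6% of the lists, beside 13.2% of all genes. Calls of higher genes numbered 1, 0 and 0, beside 12.1% of all genes.

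S phase and G2/M genes gave a measure of the cell cycle in the same libraries. In the knockdown 0 of 58 S phase genes and 0 of 53 G2/M genes passed in either direction, with medians of -0.10 and -0.07. In the sort 7 of 58 S phase genes fell in BTLAlow (12.1%, beside 6.25% of all genes) and 0 rose (beside 19.1%). Among those that fell were TIPIN, a replication fork protein (-0.58), GINS2, a helicase subunit (-0.48), CLSPN, a checkpoint adaptor (-0.39) and CDT1, a licensing factor (-0.42). Of 53 G2/M genes, 11 fell (20.8%) and 0 rose, and CDC20, an activator of the anaphase-promoting complex, had the smallest p of these (-0.75, limma, adjusted p = 3.1e-04). The medians in the sort were -0.09 for S phase genes, -0.02 for G2/M genes, 0.04 for the histone members and 0.18 for all genes tested. With libraries scaled to the same median, 24 S phase genes (41.4%) and 19 G2/M genes (35.8%) fell and 0 rose. At that scaling 13.2% of all genes fell and 12.1% rose. The medians were then -0.26 for S phase genes and -0.20 for G2/M genes, beside -0.13 for the histone members and 0.01 for all genes. The differences between these lists were not tested. In the paper's cell viability and colony assays, BTLAlow cells grew faster than BTLAhigh cells, and BTLA knockdown cells faster than controls. Those assays are another measure than transcript levels, and the relation between them was not tested. The paper also found that the BTLA difference between the sorted groups had narrowed after culture.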

How the data were processed

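RNA of 12 libraries was sequenced by the study, trimmed with Trim Galore 0.6.6, aligned with STAR to GRCh38 with Ensembl genes and counted with featureCounts. How strand and multiply mapped reads were treated is not given in the sources used here, so overlapping and antisense genes could share reads, and 9 members overlap another gene on their own strand. The authors deposited RPKM per library, and tables of their edgeR comparisons with, per gene, a log2 fold change, a likelihood ratio, a p-value, an FDR and a mean log2 CPM. Of these tables only gene names, positions and the deposited mean log2 CPM were used.

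The deposited RPKM had been divided by the span of the gene at the same place in the sorted list of gene IDs. Once multiplied by it, the values of 58797 among 60617 genes became whole reads, 764 were 0 throughout, and for 1046 (15 members among them) a length was searched at which all libraries gave whole reads near the authors' mean log2 CPM. The search recovered 600 of 600 genes of known length, and 10 genes were left out. Within 0.02 reads, 100% of values were whole. Reads were divided by library totals (RPM).

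Each comparison was fitted with limma 3.58.1 (R 4.3.3, eBayes with trend) on log2(RPM + 0.1), keeping a gene with 10 or more reads in 3 of 6 libraries, with Benjamini-Hochberg adjustment over all genes tested and a threshold of 0.05. Fold changes on that scale understate those of low genes. Single values were compared by exact permutation tests (Python 3.11.15). The fit was checked on simulated data. Groups and replicate numbers came from the labels. Named were the members that passed, the 2 members of each class with the most reads, and up to 4 genes of each list with the smallest p, while other members were named for their values. Members and lists were chosen with earlier results of these data known. The lists were written from general knowledge. Alternatives were other scaling, pseudocount, filters, voom, the deposited RPKM, a replicate block, a covariate and leaving out each library. For promoters and stem-loops, IDs were matched to current symbols. The authors' fold changes and p-values were not used.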

Additional observations from a re-analysis of the deposited data

How the results depend on the processing

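In the knockdown, 0 members were higher and 0 lower under every alternative run, with 0 to 0 when each library was left out. In the sort, members higher in BTLAlow numbered 2 of 40 with the deposited RPKM (HIST1H2BI and HIST1H4J). Of all 12588 genes in that fit, 1889 were higher and 639 lower. HIST1H4J held 4, 6 and 4 reads in BTLAlow and 2, 2 and 2 in BTLAhigh, under the filter of the main fit, so its call is not taken as support. With libraries scaled to the same median 0 of 29 members were higher (12.1% of all genes). Members higher numbered 0 to 2 when a library was left out, with HIST1H2BN and HIST1H3E called without BTLAhigh 3. With no filter the 1 member higher was HIST1H2BI. That gene had reads in BTLAlow alone. It could pass the filter on deposited RPKM (0.5 or more in 3 libraries) only through that group, so its calls are not taken as support. Members lower numbered 2 with the deposited RPKM (HIST1H2BJ and HIST1H3J) and 2 with the same median (HIST1H2BJ and HIST1H2BK). They numbered 1 to 2 when a library was left out, with HIST2H4A added without BTLAhigh 3. HIST1H3J passed the filter of the main fit through BTLAhigh alone, so its call is not taken as support. HIST1H2BJ passed in all alternatives, with adjusted p of 8.6e-04 to 0.0140. HIST1H3E lost its call with the deposited RPKM (0.0733), no filter (0.0564), the same median (0.0636) and without any of 4 libraries (0.0686 to 0.104), with differences of 0.70 to 1.27 when a library was left out.

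Some small differences changed sign without passing. In the knockdown a covariate of other RNAs without a poly(A) tail gave -0.31 for HIST1H1C, -0.27 for HIST2H2AC and 0.04 for HIST1H2BK, and the same median gave 0.01 for HIST1H2BD. Leaving out libraries gave -0.14 to 0.22 for HIST1H1C, -0.03 to 0.19 for HIST1H2AC, -0.10 to 0.35 for HIST2H2AC, -0.19 to 0.11 for HIST1H2BD and -0.36 to 0.0043 for HIST1H3H. In the sort the same median gave -0.14 for HIST1H2AC and -0.04 for HIST1H4H. Leaving out libraries gave -0.23 to 0.01 for HIST1H1C, -0.02 to 0.09 for HIST1H2AC, -0.08 to 0.04 for HIST1H2BD and -0.25 to 0.45 for HIST1H4H. The cause was not tested.

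Same-numbered libraries did not all deviate together (correlations across genes of 0.218, 0.406 and -0.039 in the knockdown and 0.068, -0.373 and -0.165 in the sort), so the numbers were not taken as pairs. With a replicate block, members called stayed at 0 and 0 in the knockdown and at 1 (HIST1H3E, 0.98, adjusted p = 0.0452) and 1 (HIST1H2BJ, -1.34, adjusted p = 0.00767) in the sort, while calls over all genes went from 130 higher and 114 lower to 260 and 285 in the knockdown, and from 3238 and 1057 to 1726 and 461 in the sort. Over all genes the deposited RPKM gave 70 and 45 calls in the knockdown and 1889 and 639 in the sort, the covariate gave 39 and 15 in the knockdown, and leaving out a library gave 22 to 291 higher and 3 to 263 lower in the knockdown and 1578 to 4603 and 418 to 1382 in the sort. HIST1H1E under the filter of 30 reads (knockdown) and HIST2H2AC with the deposited RPKM (both comparisons) did not pass the filter and gave no value. Of the 71 members, 41 were under the filter in both experiments, so differences in them were not tested in the main fit.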

Other observations

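Low member values were more often even than odd. Of 313 member values of 1 to 20 reads, 75.1% were even, against 61.1% of 113097 such values over all genes. How the mates of a read pair were counted is not given in the sources used here, and its part in this was not tested.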
